A study of Mus musculus with 4 samples.

Results

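The La-related protein (Larp) genes were examined among RNAs bound by MOV10 in N2A cells, a mouse neuroblastoma line. The family was taken as 6 genes, Larp1, Larp1b, Larp4, Larp4b, Larp6 and Larp7, and its peaks were selected by position, as those listed peaks with their midpoint inside the annotated span of one of these genes in GRCm38. This gave 51 of 12236 listed peaks (0.417%), which covered 3000 nt. All 51 lay in 3 of the genes, with 35 in Larp1, 10 in Larp4b and 6 in Larp4, and 0 were listed in Larp1b, Larp6 and Larp7. The genes were picked with results of this same list known, so the values below describe the members and no test was made on them.

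MOV10 is a cytoplasmic RNA helicase that associates with Argonaute proteins. Its bound RNA was measured by eCLIP, in which ultraviolet light crosslinks protein to RNA and the RNA fragments that come down with an antibody are sequenced beside an input. The groups were 2 libraries of anti-MOV10 immunoprecipitates and 2 input libraries, all of them from the same cell line, for which the labels name no treatment or genetic change. The values come from 1 list of peaks over both replicates, each peak with the authors' −log10 p and log2 fold enrichment (immunoprecipitate over input). The list has no header, so which column holds which value was read from the numbers and from the usual layout of such files, and statements on strength depend on that reading. No value per library was analysed, so the spread between replicates, the read depth and the counting error behind a peak are not known.

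Larp proteins share the La motif, an RNA-binding module first known from the La protein, which binds the 3′ ends of RNA polymerase III transcripts. LARP1 binds mRNAs that begin with a terminal oligopyrimidine tract, most of which encode ribosomal proteins and translation factors, and acts downstream of the growth kinase mTOR. LARP4 binds poly(A) RNA, and both LARP4 and LARP4B bind the cytoplasmic poly(A)-binding protein and stabilise mRNAs. LARP6 binds a stem-loop of type I collagen mRNAs. LARP7 stays in the nucleus, where it is a stable part of the 7SK particle that restrains the elongation kinase P-TEFb.

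Larp1, on the plus strand of chromosome 11 (57973418 to 58062034), carried most of the family's MOV10 peaks and all of its strong ones. Its 35 peaks had log2 fold enrichments between 3.77 and 5.46, with a median of 4.61 (interquartile range 4.39 to 4.79), which is a 24.5-fold median enrichment on the linear scale. The strongest, at 58061527 to 58061549, was 44.0-fold enriched with a −log10 p of 33.4, and its midpoint lay 496 nt before the annotated 3′ end. Of the 35 peaks, 31 reached a log2 fold enrichment of 4 and 7 reached 5, and all 35 exceeded the list's median of 3.71. Over the 11137 peaks of other coding genes the upper quartile was 4.19 and the 95th percentile 5.07, so peaks above these levels were also found in other genes.

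The peaks of Larp1 lay close together in the last part of the gene. They spanned 2192 nt, the first base 2393 nt and the last base 202 nt before the 3′ end, and covered 78.2% of that window. Joining peaks that touch left 9 intervals, separated by 8 gaps of 3 to 179 nt. The longest interval, 495 nt at 58060536 to 58061030, joined 9 peaks. Nowhere else in the 88617 nt of the gene was a peak listed, and none lay near its 5′ end.

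Within that window the enrichment rose and fell in several places rather than around 1 summit. The highest values formed 3 separate groups. In the group farthest from the end, adjoining peaks with midpoints 1477, 1430 and 1395 nt before the 3′ end had log2 fold enrichments of 5.10, 5.13 and 5.08. The next group held 5.22 at 838 nt and 5.13 at 795 nt, and the one nearest the end held 5.09 at 515 nt and 5.46 at 496 nt. The 4 peaks under a log2 fold enrichment of 4 lay between and beside these groups, with 3.77 at 1177 nt, 3.78 at 923 nt, 3.83 at 381 nt and 3.81 at 333 nt. By stretches of 500 nt counted back from the end, the median log2 fold enrichment was 4.51 over 6 peaks, 4.82 over 7, 4.50 over 9, 4.69 over 9 and 4.49 over 4, so the medians showed no steady trend along the window. Touching peaks can share reads and are not independent measurements.

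**Figure D1:**
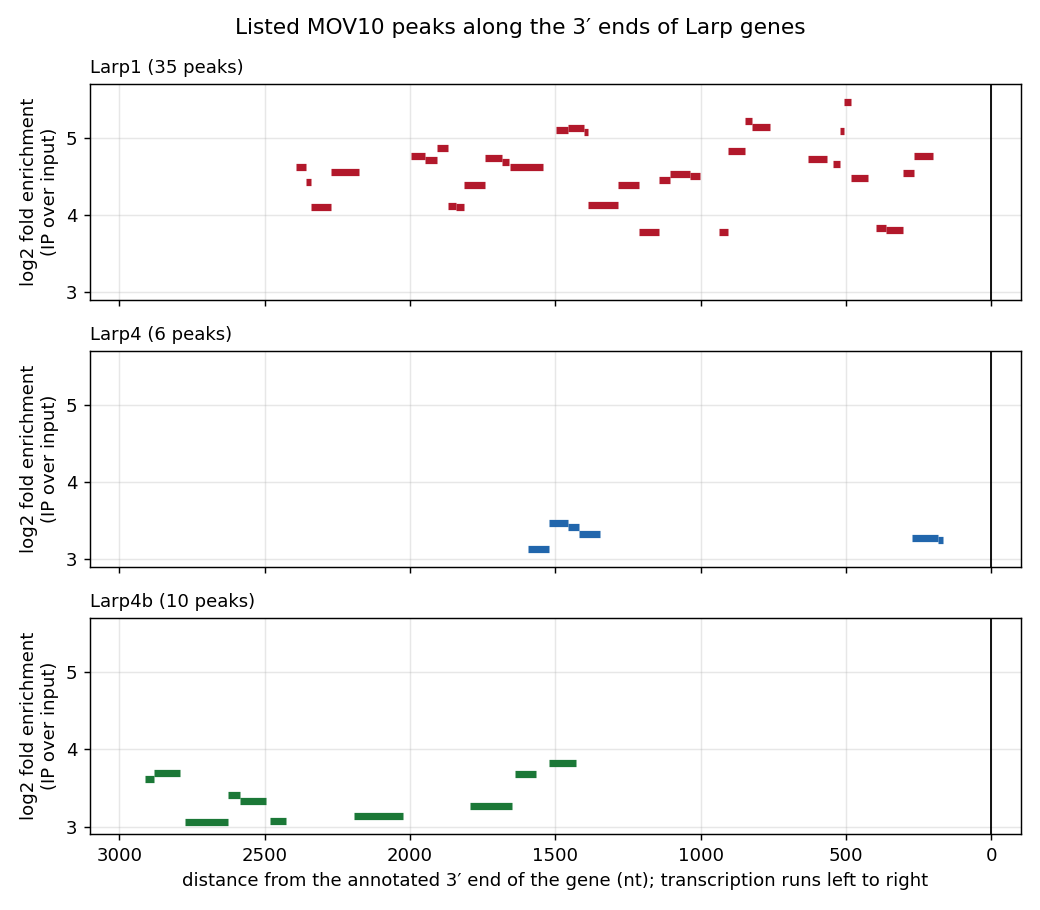
Log2 fold enrichment of immunoprecipitate over input (vertical axis) of each listed peak against its distance from the annotated 3′ end in nt (horizontal axis) for Larp1, Larp4 and Larp4b. Each bar is 1 peak drawn at its true width. The 35 peaks of Larp1 run from 2393 to 202 nt before the end, with gaps of at most 179 nt. Larp4 has groups on either side of a gap of 1073 nt, and Larp4b has its peaks between 2911 and 1429 nt.

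The largest listed −log10 p in Larp1 fell on single peaks other than those of highest fold enrichment, though next to one of them. At 58061096 to 58061127 and at 58061128 to 58061184 the value was 400, the ceiling of the column, with log2 fold enrichments of 3.78 and 4.82. The neighbouring peak nearer the 3′ end touched them, with a −log10 p of 47.6 and a log2 fold enrichment of 5.22, rank 2 in the gene. The neighbour on the other side was at 42.2, and the other 33 peaks of the gene ran from 15.6 to 55.0. Over the whole list 84 peaks stood at 400 and the highest value below was 165, so the ceiling does not say by how much these peaks exceeded the rest. The reads behind them are not known.

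**Figure D2:**
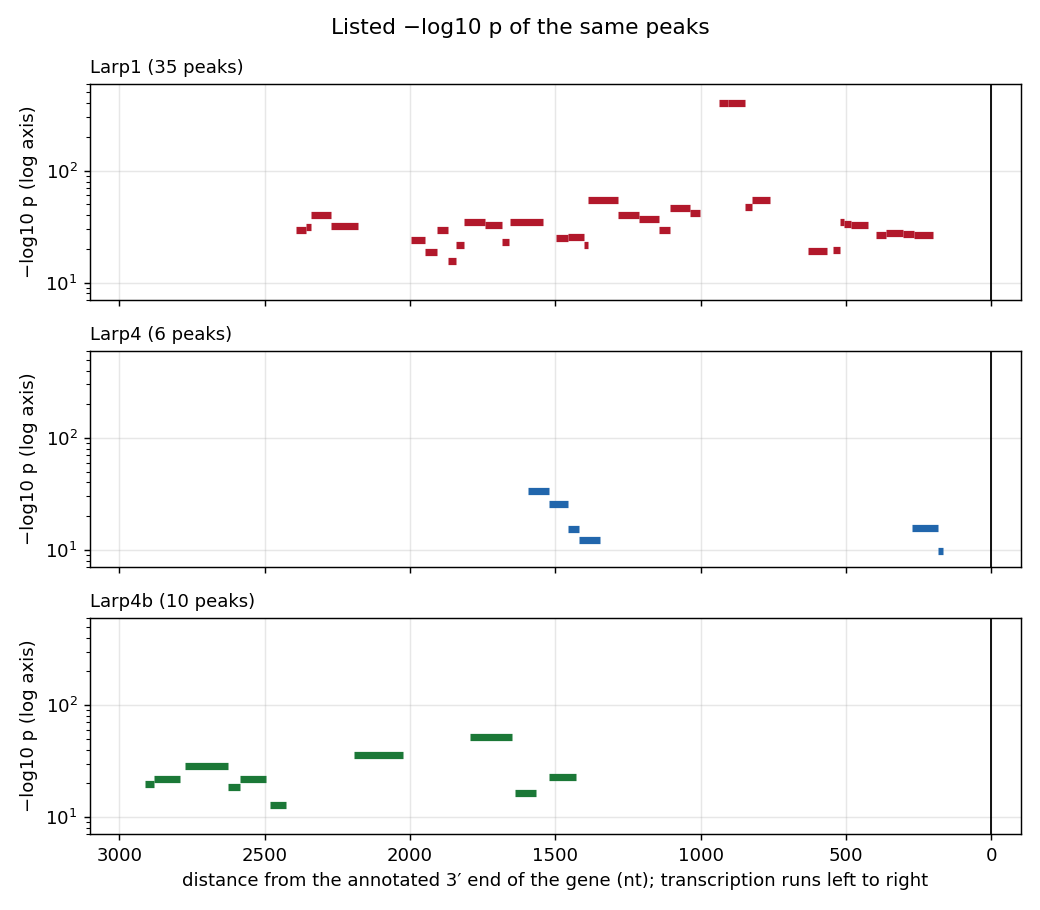
Listed −log10 p (vertical log axis) of the same peaks against distance from the 3′ end in nt. In Larp1 adjoining peaks stand at the ceiling of 400, above the other 33 at 15.6 to 55.0. Larp4 runs from 9.72 to 33.2 and Larp4b from 12.9 to 51.8.

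Larp4b, which encodes a stabiliser of mRNAs, lies on the plus strand of chromosome 13 (9093653 to 9174451) and held 10 peaks of modest enrichment. Read towards the 3′ end, the log2 fold enrichments were 3.61, 3.70, 3.06, 3.40, 3.33, 3.07, 3.13, 3.27, 3.68 and 3.83. The higher values thus stood at both edges of the bound stretch and the lower ones between them. The median was 3.37, a 10.3-fold enrichment, and 1 of the 10 exceeded the median of the list. The strongest peak, at 9172930 to 9173022, was 14.2-fold enriched and was also the one nearest the 3′ end, with its midpoint 1475 nt away. The last 1429 nt of the gene held no listed peak, whereas in Larp1 13 of 35 peaks lay within 1 kb of the end.

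The peaks of Larp4b were longer than those of Larp1, with a median of 87 nt and a range of 32 to 171 nt in Larp4b and a median of 43 nt and a range of 15 to 113 nt in Larp1. They covered 62.8% of the 1483 nt between the first and the last of them, in 7 intervals once touching peaks were joined. The largest −log10 p, 51.8, belonged to a peak of 145 nt at 9172658 to 9172802 whose log2 fold enrichment was 3.27.

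Larp4, the closest relative of Larp4b in the family, lies on the plus strand of chromosome 15 (99970065 to 100016358) and held 6 peaks in 2 intervals. The interval farther from the end, at 100014764 to 100015012, joined 4 peaks with log2 fold enrichments of 3.14, 3.47, 3.41 and 3.33, read towards the 3′ end. The other, at 100016086 to 100016190, joined peaks of 3.28 and 3.25, and its last base lay 168 nt before the end. All 6 values were below the list's median, and the strongest was 11.1-fold on the linear scale. The gap of 1073 nt between the intervals was the longest in any of the 3 genes, and peaks covered 24.8% of the 1427 nt from the first to the last.

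The single-peak values of Larp1 and Larp4 did not overlap, since the weakest Larp1 peak (3.77) stood above the strongest Larp4 peak (3.47). This was not particular to Larp4. Of the 1686 coding genes with peaks, 477 had a strongest value below that of Larp4, so their peaks also lay wholly below those of Larp1. Larp1 and Larp4b overlapped between 3.77 and 3.83, with the 3 weakest peaks of Larp1 below the strongest of Larp4b and the other 32 above it. The range of Larp4 lay inside that of Larp4b, with 4 of 10 Larp4b peaks above the highest of Larp4. These are ranges over peaks of 1 combined list, and whether the genes differ between cultures was not tested.

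**Figure D3:**
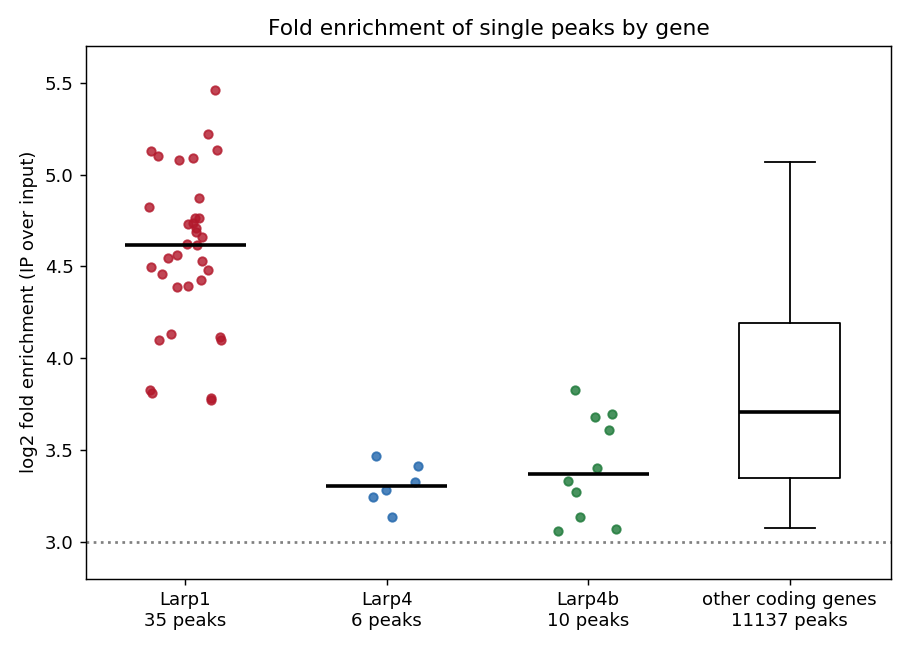
Log2 fold enrichment of every peak of Larp1, Larp4 and Larp4b (points, with the median as a line) beside the 11137 peaks of other coding genes (box from 3.35 to 4.19 with the median at 3.71, whiskers from the 5th to the 95th percentile, 3.07 and 5.07). The dotted line marks 3, the level just above which the list begins. The points of Larp1 lie above those of Larp4 with no overlap, as they do above the peaks of at least 477 other coding genes.

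Larp1b, Larp6 and Larp7 had no listed peak. Larp1b, the paralogue of Larp1, spans 90438 nt on chromosome 3 (40949770 to 41040207), and the nearest listed peak outside it belonged to Hspa4l, 155341 nt away. Larp6, the collagen mRNA-binding member, spans 25681 nt on chromosome 9 (60713121 to 60738801), with the nearest peak 1321688 nt away in Arih1. Larp7 spans 16636 nt on the minus strand of chromosome 3 (127536714 to 127553349), with the nearest peak 254194 nt away in Ap1ar. The list begins at a log2 fold enrichment of 3.001, and how much of each RNA the inputs held is not known, so the lack of a listed peak does not show that an RNA was unbound. The members closest to that lower edge were Larp4b peaks at 3.06 and 3.07.

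The span of Larp7 also holds, on the opposite strand, the microRNA cluster of miR-302 and miR-367, known for its high level in embryonic stem cells. No listed peak touched the cluster (chromosome 3, 127545228 to 127545807), which holds 5 hairpins. The 3p arms of miR-302b, miR-302c, miR-302d and miR-367, from RefSeq for GRCm38.p6, are shown with the seed (bases 2 to 8) in capitals. They are small RNAs of the silencing pathway inside a member's span. For miR-302a the annotation used gave only the 5p arm, so its 3p arm is not shown or compared. The arms of miR-302b and miR-302d have the same seed, while that of miR-302c as annotated starts 1 base later in the shared sequence.
mmu-miR-302b-3p: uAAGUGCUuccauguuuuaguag
mmu-miR-302d-3p: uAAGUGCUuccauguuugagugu
mmu-miR-302c-3p: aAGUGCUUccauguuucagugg
mmu-miR-367-3p: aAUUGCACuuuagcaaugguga

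Against all genes, 3 of the 6 Larp genes had a listed peak, where 1686 of 21900 coding genes (7.7%) did. When only peaks whose log2 fold enrichment reached 4 were counted, it was 1 of 6, Larp1, against 3.27% of coding genes, and at 5 again Larp1 alone, against 0.689%. Since the family was picked knowing that it held peaks, nothing is read from these shares. Among the 1686 coding genes with peaks, Larp1 ranked 30 by number of peaks, 65 by its strongest and 21 by its median log2 fold enrichment, with the highest as rank 1. Larp4b ranked 322, 871 and 1085 on these measures and Larp4 ranked 529, 1209 and 1218. With touching peaks joined, the ranks by number of intervals were 195 for Larp1, 306 for Larp4b and 849 for Larp4. By the bases that its peaks covered, Larp1 ranked 70. The other 1683 coding genes with peaks had a median of 3 peaks and a median strongest log2 fold enrichment of 3.85, so Larp4b (10 peaks, 3.83) and Larp4 (6 peaks, 3.47) held more peaks than the median gene without stronger ones. For Larp4 this depended on counting touching peaks apart. After joining, it held 2 intervals, and only 33.6% of coding genes with peaks held fewer, against 79.4% for the 7 intervals of Larp4b.

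Position near the 3′ end was common to the family's peaks and to most of the list. All 51 had their midpoint inside the last 5 kb of their gene, and 51 of 51 were on the strand of the gene. Likewise, 1416 of the other 1683 coding genes (84.1%) had all of their peaks within 5 kb of the end, and 8764 of the 8777 peaks whose gene strand was known (99.9%) lay on it. Inside 2 kb the members differed, with 31 of 35 peaks in Larp1, 3 of 10 in Larp4b and 6 of 6 in Larp4. The median distance of the midpoint from the 3′ end was 1515 nt over the peaks of other coding genes. It was 1249 nt in Larp1, 1411 nt in Larp4 and 2497 nt in Larp4b. The gene table gives no exons, so whether a peak lies in an untranslated region or in coding sequence was not determined, and the 3′ end is that of the outermost annotated transcript.

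The coding genes most like Larp1 in number of peaks, strongest log2 fold enrichment and share of peaks within 5 kb of the end, by the summed difference in percentile rank over all 1686, were Alkbh5, Dpysl3 and Wasf2. Alkbh5, which encodes an RNA demethylase of N6-methyladenosine, held 35 peaks up to 5.53, all within 4009 nt of the end. Dpysl3, a collapsin response mediator gene, held 52 up to 5.47, and Wasf2, a regulator of actin branching, held 28 up to 5.45. Each of these genes had more intervals after joining than the 9 of Larp1, with 18 in Alkbh5, 18 in Dpysl3 and 16 in Wasf2. The −log10 p stood at the ceiling of 400 in 11 peaks of Dpysl3 and in 0 of Alkbh5 and Wasf2, against 2 in Larp1.

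Of 24 related and partner genes, 23 of them coding, 5 had a listed peak, all 5 coding, beside the 7.7% of all coding genes. The list was written with earlier results of these data known, so nothing is read from this share or from the counts of its groups. The La gene Ssb had 0. The next 5 genes encode cytoplasmic poly(A)-binding proteins or proteins listed as partners. Pabpc1, whose protein coats poly(A) tails and binds LARP4 and LARP4B, held 60 peaks up to 5.23. Its relative Pabpc4 held 9 up to 3.58, while Paip1, Paip2 and Rack1 had 0. Of 7 genes of growth control around LARP1 and mTOR, 2 had peaks. Eif4ebp2, a repressor of the cap-binding factor eIF4E, held 20 up to 5.38, and Rptor, the substrate-binding subunit of mTOR complex 1, held 1 at 3.48. Of 7 genes of the 7SK particle and its kinase, Ccnt1, the cyclin T1 gene, held 5 up to 4.03, and the others, the 7SK RNA gene Rn7sk included, had 0. The 4 genes listed beside LARP6, the collagen genes Col1a1, Col1a2 and Col3a1 and the filament gene Vim, had 0. In position some partner genes differed from the Larp genes. Within 5 kb of the 3′ end lay 33 of 60 peaks of Pabpc1, 2 of 9 of Pabpc4 and 14 of 20 of Eif4ebp2. All peaks of Rptor and Ccnt1 lay within it.

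**Figure D4:**
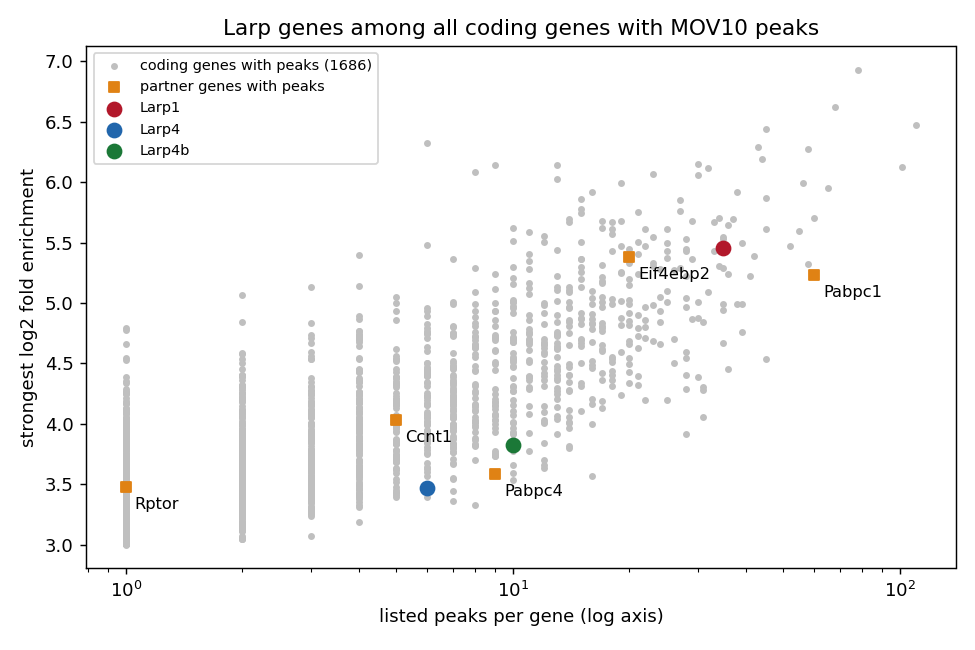
Strongest log2 fold enrichment (vertical axis) against the number of listed peaks (horizontal log axis) for each of the 1686 coding genes with peaks (grey points), with Larp1, Larp4 and Larp4b in colour and the 5 partner genes with peaks as squares. Larp1 (35 peaks, 5.46) lies at the upper right with Pabpc1 and Eif4ebp2, and Larp4 (6 peaks, 3.47) at the lower edge.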

How the data were processed

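MOV10 eCLIP of N2A cells gave 4 libraries, 2 immunoprecipitates and 2 inputs. Per the labels' protocols, the published eCLIP method was used without changes. The authors deposited 1 combined peak list, named for the comparison of immunoprecipitate with input and for an IDR step, a filter on reproducibility. The deposited −log10 p has a ceiling of 400, and the deposited log2 fold enrichment was used as given. Both column meanings were inferred from the values. The submitters' processing notes name the builds mm10 and GRCm38.p6, while the aligner, peak caller and cut-offs were not given in the sources used here.

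With Python 3.11.15 and pandas 2.3.3, starts were converted to count from 1, and peaks were assigned to a RefSeq GRCm38.p6 gene when their midpoint lay in exactly 1 span. Strands came from the RefSeq promoter table. Assignment and merging were checked on simulated peaks. The members and lists were chosen with earlier results of these data known. The rule for named genes took the 6 members, the partner genes with a peak, and the 3 coding genes most like Larp1. Outside it, partner genes without a peak and the genes of the nearest outside peaks were named after their values were seen. No genome was used, so peak sequences are not shown, and a planned comparison of Larp protein sequences was not run.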

Additional observations from a re-analysis of the deposited data

How the results depend on the processing

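The 4 alternatives were a minimum log2 fold enrichment of 4, a minimum −log10 p of 5, touching peaks merged, and any overlap with the gene. Larp1 kept a strongest log2 fold enrichment of 5.46 under all of them. For the minimums and the merging this was fixed in advance. That peak, with a −log10 p of 33.4, passed both minimums, and a merged peak was given the largest value of its parts. The minimum −log10 p left every value of the members as it was, and could not do otherwise, since their lowest value was 9.72. The overlap rule also left every value as it was. It could add no peak, since the nearest one outside a member lay 55923 nt from Larp1. With a minimum log2 fold enrichment of 4, members with a peak fell to 1, Larp4 and Larp4b had 0 peaks and no other value, and the median of Larp1 was 4.66. Merging touching peaks left 9 peaks in Larp1 and 2 in Larp4. The medians were then 4.76 in Larp1, 3.38 in Larp4 and 3.40 in Larp4b. They are medians of the largest value in each merged peak, so they are not directly comparable with medians over single peaks. The share of peaks near the 3′ end, 100% within 5 kb, was 88.6% in Larp1 and 30% in Larp4b within 2 kb, and 37.1% in Larp1, 33.3% in Larp4 and 0% in Larp4b within 1 kb. No paired analysis was possible because the list holds 1 value per peak over all libraries, and for the same reason leaving out a replicate was not run. Counting error and the level of each RNA in the input are not known.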

Other observations

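In Larp4b the longer peaks had the larger −log10 p. Spearman's rho between peak length and −log10 p was 0.85 over the 10 peaks of Larp4b, 0.35 over the 35 of Larp1 and 0.37 over the 6 of Larp4, against −0.19 over the whole list of 12236. These are descriptions across peaks of 1 combined list, which share libraries and may share reads. The value over the whole list also mixes differences between genes with those inside them. Values inside other genes were not computed, so whether the Larp genes are unusual is not known.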
